A study of Homo sapiens with 2 samples.

Results

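The last stretch of 28S rRNA, after deposited position 4575 and up to the last listed 28S position, was examined for RNA ends that carry a 2′,3′-cyclic phosphate in A549 cells after poly I:C. The members are all rows of the deposited table with a 28S position inside these limits, 372 of the 5047 listed positions of 18S and 28S rRNA. The stretch is 522 nt long, so 71.3% of its positions were listed and 150 were not. A listed position reaches 5 reads in the poly I:C library, the mock library or both. The poly I:C library came from A549 cells, an established adherent line of lung carcinoma epithelium, transfected with poly I:C at 1 µg/mL for 1 h using Lipofectamine. The mock library came from A549 cells given the transfection reagent alone. Both libraries were made from total RNA by RtcB ligation of an adapter to cyclic phosphate ends. Each condition has 1 library, so no difference below has a replicate check or a test.

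28S rRNA is the main RNA of the large ribosomal subunit, and its 3′ end forms domain VI. This domain holds the sarcin-ricin loop, a conserved hairpin where translational GTPases dock and which the toxins ricin and α-sarcin attack. It also holds expansion segment ES39L, a stretch of eukaryotic rRNA with no counterpart in bacteria. Poly I:C is a synthetic double-stranded RNA. In many cells double-stranded RNA activates RNase L, a nuclease whose cuts end in a cyclic phosphate. Other RNases and chemical breakage of RNA can leave the same end. The study mapped where such ends lie during poly I:C treatment. No 28S sequence was used here, so the sarcin-ricin loop and ES39L were not placed on the deposited numbering, no nucleotide is assigned to a position, and the domain name rests on the limits alone.

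The table lists 3764202 rRNA reads in the poly I:C library and 3079346 in the mock library. These sums cover the listed 18S and 28S positions and not whole libraries, and each count was scaled to its library's sum. The ratio is poly I:C over mock after this scaling. The 95% interval beside a ratio is exact (Clopper-Pearson) for a pair of counts. It covers counting error only, since PCR copies of 1 molecule can be counted more than once. A position was compared when its reads in the 2 libraries summed to 100 or more. It is called higher when the ratio reaches 2 and lower when it is 0.5 or less.

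The segment held a smaller share of the rRNA reads in the poly I:C library. It had 83978 reads in the poly I:C library, which is 2.23% (95% exact binomial interval 2.22 to 2.25) of the listed reads. In the mock library it had 96915 reads, or 3.15% (3.13 to 3.17). The ratio of these shares was 0.709 (0.702 to 0.715). The rest of 28S rRNA had a ratio of 0.864 (0.862 to 0.866), and 18S rRNA had a ratio of 1.46 (1.46 to 1.47). A low share ratio was not particular to the segment, since 3 other stretches of 28S rRNA of the same length stood at 0.595, 0.679 and 0.709.

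In both libraries ends were dense up to position 4779, sparse from 4780 to 4932 and dense again from 4933 on. This division was made after the values were seen, at the nearest positions with at least 200 reads on either side of the longest unlisted run, the 29 nt from 4821 to 4849. The first stretch listed 189 of 204 positions, the sparse middle 48 of 153 and the last stretch 135 of 165. The sparse middle held 837 poly I:C reads and 477 mock reads, or 0.997% of the segment's poly I:C reads and 0.492% of its mock reads. The sparse middle had a ratio of 1.44 (1.28 to 1.61), above 1, while the first stretch stood at 0.638 (0.630 to 0.646) and the last at 0.801 (0.789 to 0.812). Only 2 positions of the sparse middle had 100 or more reads over both libraries, and both had ratios below 1, with a median of 0.549. The 1.44 thus rests on positions with fewer reads. Of the 48, 15 had 0 mock reads and were listed through poly I:C reads alone, and 4 had 0 poly I:C reads. Over all 372 positions, the scaled reads of one library followed those of the other, with Pearson's r = 0.930 on log2 values and Spearman's rho = 0.945. This describes positions of the same molecule in 1 pair of libraries, and positions are not replicates.

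**Figure D1:**
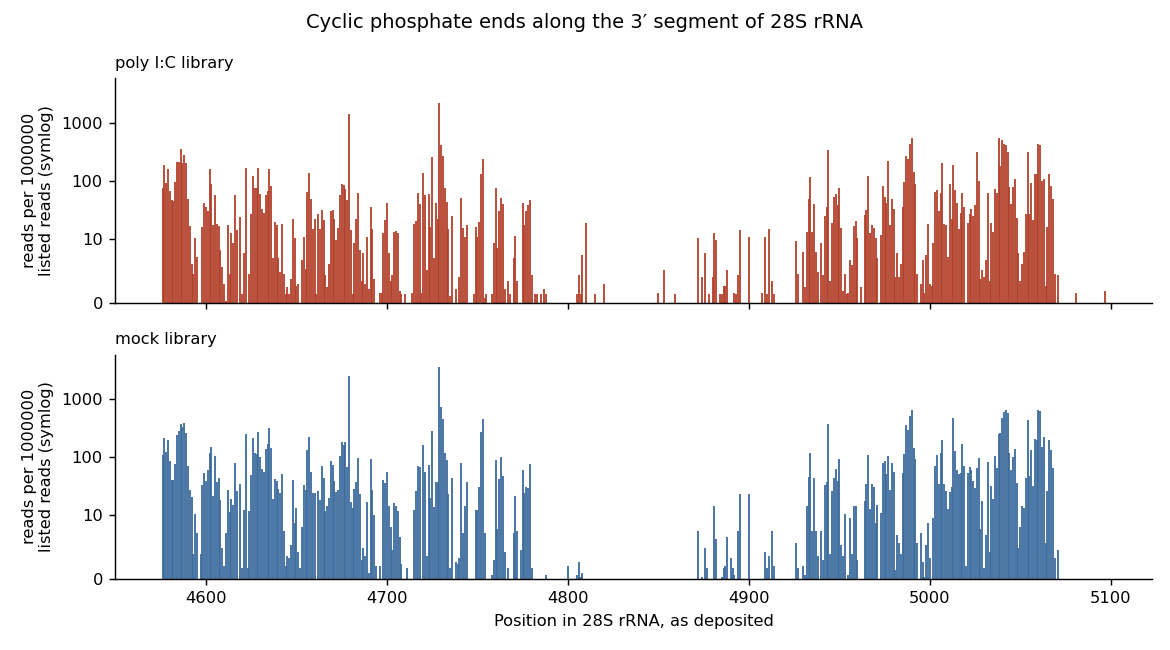
Reads per 1000000 listed reads (symlog axis, linear below 10) at each listed position of the 28S rRNA segment, with the poly I:C library above and the mock library below. Positions 4729 and 4679 are the tallest in both libraries, and only 48 of the 153 positions from 4780 to 4932 are listed.

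A pair of positions stood above all others of the segment in both libraries. Position 4729 had 8564 reads in the poly I:C library and 11008 in the mock library. It was the most frequent end of the segment in both and held 10.2% of its poly I:C reads and 11.4% of its mock reads. Its ratio was 0.636 (0.619 to 0.655). Position 4679 came next, with 5444 poly I:C reads and 7908 mock reads, a ratio of 0.563 (0.544 to 0.583). Neither reached the 2-fold rule. Position 4729 was followed by a ladder of decreasing ends, with 1557 poly I:C reads and 2302 mock reads at 4730 and 1026 and 1433 at 4731. Of the reads within 10 nt either side, 4679 held 70.6% in the poly I:C library and 68.3% in the mock library, and 4729 held 60.9% and 62.2%.

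Other frequent ends also came in short ladders of adjacent positions, and all but 5038 and 5040 among the most frequent had ratios below 1. Of the 8 positions with the most reads in each library, 5 were the same. Each library's 8 held 29.8% of the segment's reads in the poly I:C library and 32.0% in the mock library. In the ladder at 4989 and 4990, position 4990 had 2055 poly I:C reads and 1989 mock reads, a ratio of 0.845 (0.794 to 0.899). Position 4989 had 1647 poly I:C reads and 1557 mock reads, a ratio of 0.865 (0.807 to 0.928). The ratios of 4989 and 4990 turned to 1.07 and 1.05 when libraries were scaled by the median ratio of all compared positions.

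A longer ladder ran from 5038 to 5043, and its top lay at different positions in the libraries. In the poly I:C library the most frequent end of this ladder was 5038 with 2124 reads, followed by 5040 with 1944. In the mock library it was 5042 with 2046 reads, followed by 5041 with 1847. Position 5040 had 1485 mock reads and a ratio of 1.07 (1.00 to 1.15). Position 5041 had 1637 poly I:C reads and a ratio of 0.725 (0.678 to 0.775), and position 5042 had 1585 poly I:C reads and a ratio of 0.634 (0.593 to 0.677). Position 5039, between the 2 most frequent poly I:C ends, had 671 poly I:C reads and 819 mock reads, a ratio of 0.670 (0.604 to 0.743). Position 5043, chosen after its value was seen, had 1188 poly I:C reads and 1815 mock reads, a ratio of 0.535 (0.497 to 0.576).

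Of the 372 listed positions, 204 had at least 100 reads over both libraries and were compared. They held 96.4% of the segment's poly I:C reads and 97.1% of its mock reads. Only 4 of the 204, or 1.96%, were called higher after poly I:C, while 8.18% of all 2750 compared positions of both rRNAs were. At least 2-fold lower were 36, or 17.6%, against 10.1% of all compared positions. None of the 204 was at least 10-fold higher, against 2.84% of all compared positions. The median ratio was 0.661, a log2 value of -0.60, beside -0.31 over all compared positions and -0.34 over the rest of 28S rRNA. The ratio was below 1 at 179 positions and above 1 at 25. Most compared positions of both rRNAs were also below 1 under this scaling, 1853 of the 2750, with 897 above. In the segment the counting interval lay wholly below 1 at 147 and wholly above 1 at 10. Such intervals were not counted over all compared positions.

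Lower calls depend on the scaling more than higher calls. Higher calls made up 10% of all calls in the segment, and 21.1% when scaled by the median ratio, with 4 higher and 15 lower positions. These are 1.96% and 7.35% of the segment's compared positions, beside 11.6% higher and 3.27% lower among all compared positions under that scaling. Every scaling multiplies all ratios by 1 factor, so the segment's median stayed 0.29 log2 units below that of all compared positions under each of the 4 scalings run. A lower ratio therefore need not be a loss of reads.

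**Figure D2:**
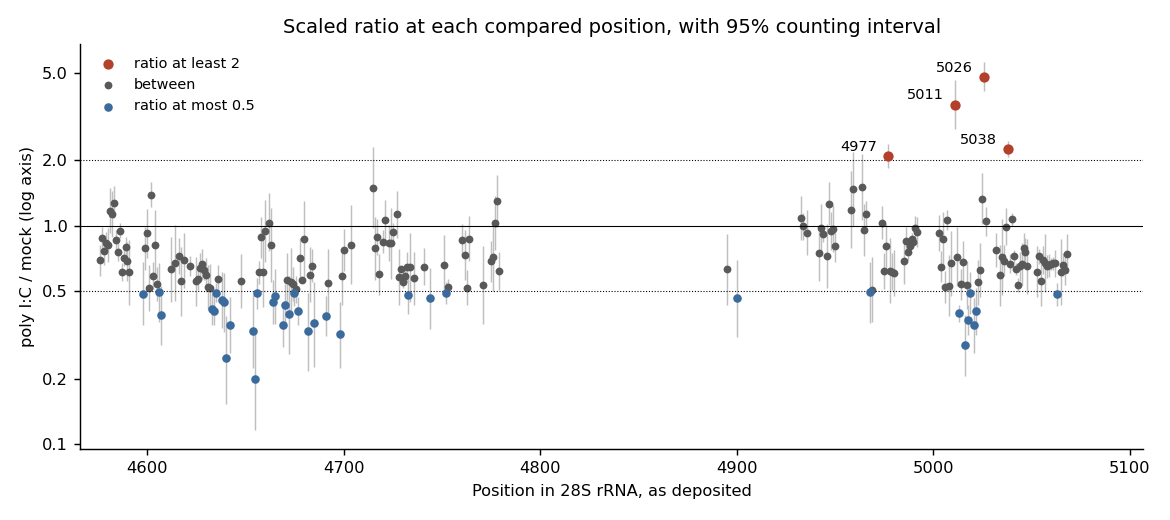
Ratio of poly I:C over mock (log axis) at the 204 compared positions, with vertical bars for the 95% counting interval; dotted lines mark ratios of 2 and 0.5. The 4 positions called higher are 4977, 5011, 5026 and 5038, and no compared position lies between 4779 and 4895.

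The 4 higher positions all lay from 4977 on, in the last of the 3 stretches. Position 5026 had the highest ratio, with 1179 reads in the poly I:C library against 202 in the mock library. Its ratio was 4.77 (4.11 to 5.57). Position 5011 had 331 poly I:C reads and 76 mock reads, a ratio of 3.56 (2.77 to 4.63). Position 5038 had 2124 poly I:C reads and 776 mock reads, a ratio of 2.24 (2.06 to 2.43). Position 4977 had 828 poly I:C reads and 326 mock reads, a ratio of 2.08 (1.83 to 2.37), and its interval reaches below 2. The other scalings multiply every ratio by 1.03 to 1.24, so none could end a higher call. Over the 4 scalings the ratios ran from 2.08 to 2.58 at 4977, from 3.56 to 4.42 at 5011, from 4.77 to 5.92 at 5026 and from 2.24 to 2.78 at 5038.

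Each of these positions was a single nucleotide with a ratio above those of its direct neighbours. They were chosen as the only compared positions with a ratio of at least 2, so lower ratios beside them were largely fixed in advance. The shares and ratios around them describe the sites and support nothing. Shares of the reads within 10 nt either side do not depend on the scaling of the libraries. From 5016 to 5036, position 5026 held 35.3% of the reads (33.7 to 36.9) in the poly I:C library and 6.35% (5.53 to 7.26) in the mock library. All the other positions of that stretch together had a ratio of 0.594 (0.562 to 0.628). Directly beside it, position 5025 had 146 poly I:C reads and 90 mock reads, a ratio of 1.33 (1.01 to 1.75). Position 5027 had 383 poly I:C reads and 300 mock reads, a ratio of 1.04. Both neighbours were below 2, but above the median ratio of 0.572 over the 14 other compared positions of that stretch.

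Position 5011 held 8.33% (7.49 to 9.24) of the poly I:C reads from 5001 to 5021 and 1.43% (1.13 to 1.79) of the mock reads. The remaining positions of that stretch had a ratio of 0.570 (0.546 to 0.594). Its neighbours 5010 and 5012 had ratios of 0.566 and 0.720. It was not the most frequent end of its stretch in either library.

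Position 5038 held 18.8% of the poly I:C reads from 5028 to 5048 and 6.92% of the mock reads. The remaining positions had a ratio of 0.721 (0.701 to 0.741). Position 4977 held 22.2% (20.8 to 23.5) of the poly I:C reads from 4967 to 4987, against 9.35% (8.41 to 10.4) of the mock reads, and the remaining positions had a ratio of 0.753 (0.716 to 0.792). At both, the adjacent positions had ratios from 0.623 to 0.990. When every position was summed with its neighbours at 1 nt, only 5026 of the 4 kept a ratio of at least 2. The summed ratios were 2.36 (2.15 to 2.60) at 5026, 1.73 at 5011, 1.51 at 4977 and 1.39 at 5038. The segment had 4 positions called higher after this summing too, but they were not the same 4. Their share over all compared positions was not computed.

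**Figure D3:**
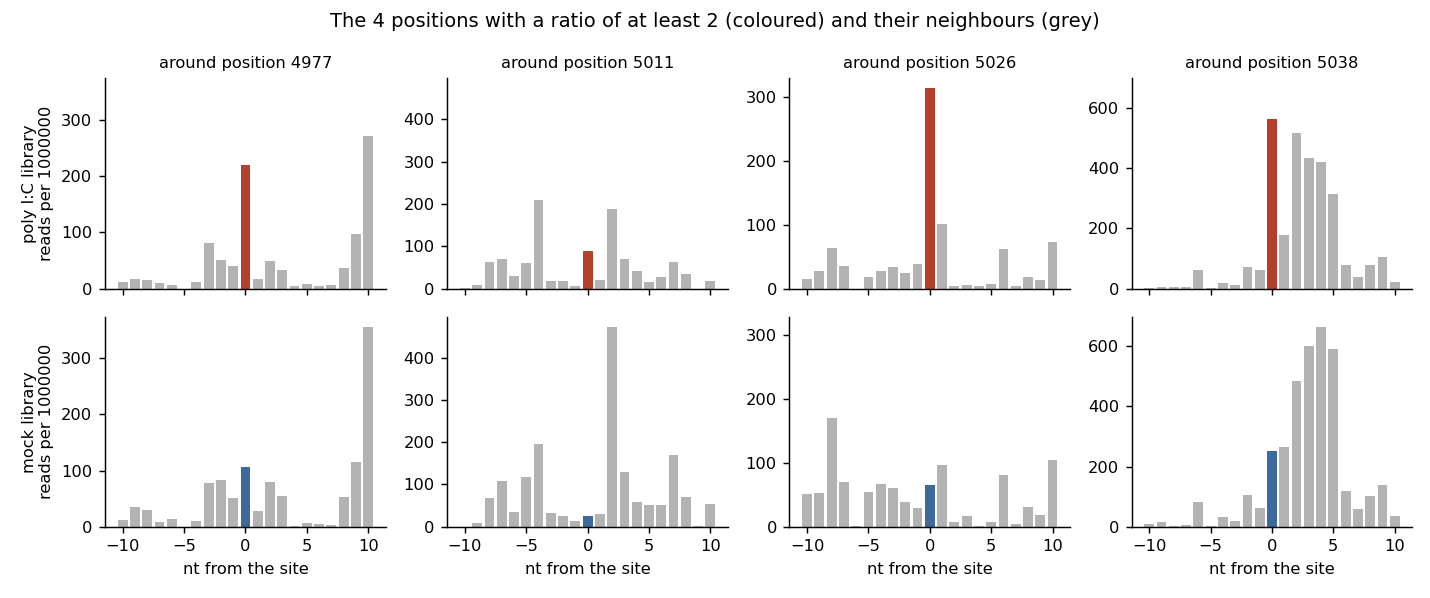
Reads per 1000000 listed reads within 10 nt of the 4 positions with a ratio of at least 2, with the poly I:C library in the upper row and the mock library in the lower row. The coloured bar at 0 is the named position and grey bars are its neighbours; position 5026 is the tallest bar of its stretch in the poly I:C library, while position 5018 is the tallest there in the mock library.

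The next 6 compared positions by ratio were not called, with ratios from 1.29 to 1.50, so no compared position lay between 1.50 and 2.08. Of these 6, position 4602 had the most reads, 600 in the poly I:C library and 355 in the mock library. Its ratio was 1.38 (1.21 to 1.58). It lies between 4601 at 0.518 (0.406 to 0.659) and 4603 at 0.591 (0.511 to 0.682), so its ratio too was above those of both neighbours. Position 4602 was also chosen by its ratio, so this describes it and supports nothing. It held 29.5% (27.5 to 31.5) of the poly I:C reads from 4592 to 4612 and 15.3% (13.8 to 16.8) of the mock reads. The other 5 were 4964, 4715, 4959, 5025 and 4778. The intervals of 4715, 4959 and 4778 hold 1.

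The 36 lower positions fell into 9 groups with gaps of at most 10 nt, of which 4 were single positions. The largest group ran from 4654 to 4698, where 14 of the 30 compared positions were lower. All 30 together, 4679 included, had 9344 poly I:C reads and 14012 mock reads, a ratio of 0.546 (0.531 to 0.560). From 4633 to 4642, 7 of 8 compared positions were lower, and the 8 together had 1609 poly I:C reads and 2866 mock reads, a ratio of 0.459 (0.432 to 0.488). From 5013 to 5022, 6 of 9 were lower, and the 9 together had 1826 poly I:C reads and 3474 mock reads, a ratio of 0.430 (0.406 to 0.455). Since each group starts and ends at a position called lower, these ratios describe the groups and support nothing. The last of these groups lies between 5011 and 5026, which have the 2 highest ratios among the segment's compared positions. The longest run of compared positions with ratios below 1 was the 35 from 4603 to 4660, from 0.200 to 0.943. This run was found by a search for it. Scaling by the median ratio, which multiplies every ratio by 1.24, breaks it, since position 4658 stood at 0.886 in the main scaling.

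Among compared positions, the lowest ratios belonged to those with few reads. Position 4655 had 20 poly I:C reads and 82 mock reads, a ratio of 0.200 (0.116 to 0.328). Position 4640 had 26 poly I:C reads and 86 mock reads, a ratio of 0.247 (0.153 to 0.387). Position 5016 had 55 poly I:C reads and 158 mock reads, a ratio of 0.285 (0.206 to 0.389). Positions 4698, 4682 and 4654 completed the lowest 6, with ratios from 0.319 to 0.331. Among lower positions chosen after their values were seen, 5013 had the most reads, 708 in the poly I:C library and 1457 in the mock library. Its ratio was 0.398 (0.363 to 0.435).

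Consecutive windows of 50 nt showed the same course. Of 11 windows, 8 had a ratio below 1. The lowest was 4626 to 4675, with 6492 poly I:C reads and 10029 mock reads, a ratio of 0.530 (0.513 to 0.546). The windows from 4676 to 4725 and from 4726 to 4775 followed, at 0.616 (0.601 to 0.633) and 0.618 (0.605 to 0.631). The most reads lay in 5026 to 5075, with 20927 in the poly I:C library and 21690 in the mock library. It stood at 0.789 (0.774 to 0.804). That window held 24.9% of the segment's poly I:C reads and 22.4% of its mock reads. The window from 4926 to 4975 stood at 0.959 (0.922 to 0.998), the nearest to 1 among the windows with over 1000 reads in each library.

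The 3 windows with a ratio above 1 held few reads. From 4776 to 4825 there were 684 poly I:C reads and 517 mock reads, a ratio of 1.08 (0.964 to 1.22). From 4826 to 4875 there were 84 poly I:C reads and 24 mock reads, a ratio of 2.86 (1.80 to 4.71). The last window, from 5076 on, had 13 poly I:C reads and 0 mock reads, a ratio of 3.54 against a floor of 3 mock reads. Its 2 listed positions entered the table through poly I:C reads alone, so a ratio above 1 in this window shows no rise. None of the 5 positions listed from 4826 to 4875 reached the 100 reads needed for comparison. Positions 4850, 4853 and 4859 had 0 mock reads and 4874 had 1, so they too were listed through poly I:C reads alone. The remaining one, 4872, had 39 poly I:C reads and 23 mock reads, a ratio of 1.39 (0.808 to 2.43). The ratio of 2.86 in that window therefore shows no rise either.

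**Figure D4:**
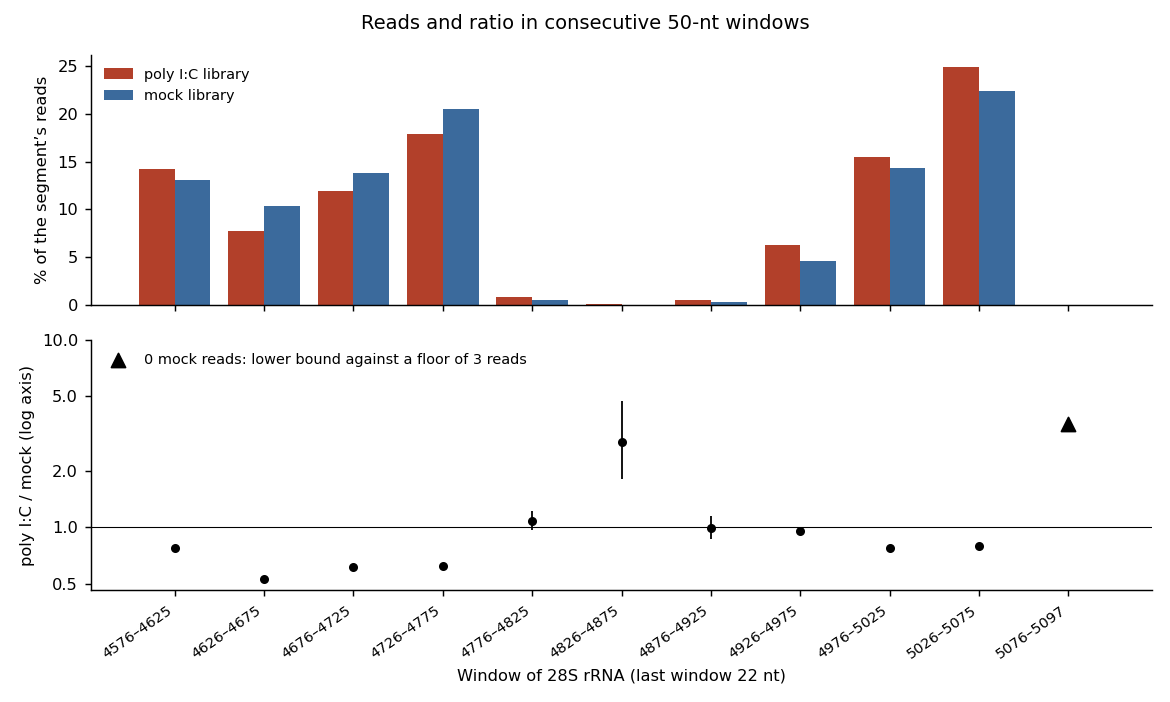
Upper plot, percent of the segment's reads in each 50-nt window for the poly I:C library (left bar) and the mock library (right bar). Lower plot, ratio of poly I:C over mock (log axis) with its 95% counting interval; the triangle is a lower bound against 3 reads, and the lowest window, 4626 to 4675, stands at 0.530.

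At the 3′ terminus all compared ends had ratios below 1. The annotated 28S copies (RefSeq, GRCh38.p14) are from 5054 to 5077 nt long, and 5070 nt is the length of RNA28SN5. No source used here names the reference behind the deposited positions, so the true end is not fixed on this numbering. Of the 11 listed positions within 10 nt of 5070, 8 were compared, with ratios from 0.485 to 0.744. Positions 5060 and 5061 held the most reads there. Position 5060 had 1635 poly I:C reads and 2006 mock reads, a ratio of 0.667 (0.624 to 0.712). Position 5061 had 1599 poly I:C reads and 1948 mock reads, a ratio of 0.671 (0.628 to 0.718). The lowest of the 8 was position 5063 at 0.485 (0.428 to 0.549), with 411 poly I:C reads and 693 mock reads.

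Past position 5070 there were 3 listed positions, with 29 poly I:C reads and 14 mock reads in all. Position 5071 had 16 poly I:C reads and 14 mock reads. Position 5081 had 6 poly I:C reads and the last listed position had 7, and both had 0 mock reads. Against a floor of 3 mock reads their ratios were at least 1.64 and at least 1.91, but both were listed through poly I:C reads alone. At the other limit, positions 4573, 4574 and 4575, just outside, had ratios of 0.779, 0.674 and 0.993. The first 3 positions inside had ratios of 0.695, 0.882 and 0.765.

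The segment was set beside 8 other consecutive stretches of 522 nt of 28S rRNA, which run from position 400 to 4575. It had the smallest percent of higher positions, and its top ratio among compared positions, 4.77, was the lowest. Its median ratio, 0.661, was the lowest by a narrow margin. These ranks were taken among positions with at least 100 reads only. By the ratio of summed reads the segment, at 0.709, was 7 of 9 from the top, with 1444 to 1965 at 0.595 and 2488 to 3009 at 0.679 lower, and 1966 to 2487 also at 0.709. The stretch from 1444 to 1965 was the nearest in median ratio, percent higher and top ratio, with a median ratio of 0.663, 3.93% of 280 compared positions higher and a top ratio of 7.17. In that stretch 21.1% were lower, more than the 17.6% of the segment. The directly preceding stretch, 4054 to 4575, had a median ratio of 0.832, with 8.14% higher and 11.2% lower. Differences between stretches were not tested, since each rests on the same pair of libraries. In the share of mock reads the segment was the fifth of the 9 stretches.

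**Figure D5:**
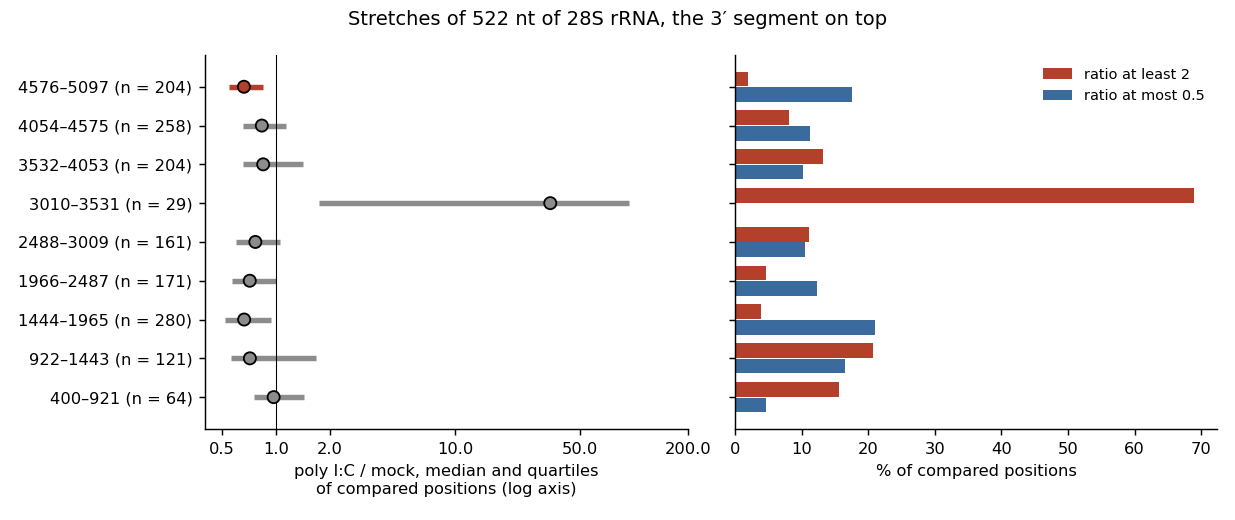
Left, median (point) and quartiles (bar) of the poly I:C to mock ratio over compared positions in 522-nt stretches of 28S rRNA (log axis; n is the number of compared positions). Right, percent of compared positions called higher (ratio 2 or more) and lower (0.5 or less); the segment at the 3′ end, on top, has 1.96% and 17.6%.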

How the data were processed

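The deposited values are raw counts of reads per rRNA position, per the file headers, 1 column for each library and rRNA. The genome build is hg19 per the submitters' processing notes. Which aligner, counter and rRNA target were used is not given in the sources at hand. The deposited position (another kind of value, with no stated origin of numbering) was used as it stands. Per the labels, A549 RNA was ligated by RtcB, reverse transcribed, circularised and amplified.

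Counts were read in Python 3.11.15 (pandas 2.3.3, numpy 2.4.6, scipy 1.17.1) and scaled to each library's listed 18S and 28S reads. A 0 was set to a floor of 3 reads for a ratio. Named positions are the 10 highest and 6 lowest ratios among compared positions, the 8 most frequent of each library, those within 10 nt of the annotated end, and 3 on each side of the lower limit and inside the upper one. The members and lists were chosen with earlier results of these data known. Ratios and intervals were tested on simulated counts that held counting error only. That test cannot show how the intervals fare with PCR copies or differences between libraries. Alternatives were 3 other scalings, 2 read minimums, other thresholds, neighbour sums and window sizes.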

Additional observations from a re-analysis of the deposited data

How the results depend on the processing

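No paired analysis was possible because a single library stands for each condition, and leaving out a replicate was impossible too. The nucleotide shares were not run, since no 28S sequence was used. The ratio of the segment's shares, 0.709, became 0.826 when scaled to listed 28S reads, 0.879 by the median ratio, 0.730 without the 10 most frequent positions of either library in the sums, and 0.718 without position 4729. The median log2 ratio became -0.38 on 28S reads and -0.29 by the median ratio. Higher positions numbered 4 under all 4 scalings, 4 with neighbours summed, 18 at a minimum of 20 reads and 3 at 1000 reads. They numbered 1 at a 4-fold threshold and 3 with an interval wholly beyond 2-fold. The 4 under each scaling are 1.96% of the segment's compared positions. Among all compared positions 10.3% were higher on 28S reads, 11.6% by the median ratio and 8.4% without the most frequent positions. Higher shares in the segment against all compared positions were 5.86% and 12.2% at 20 reads, and 6.98% and 12.1% at 1000 reads. Lower positions numbered 19 on 28S reads, 15 by the median ratio, 28 without the most frequent positions, 47 with neighbours summed, 62 at 20 reads, 4 at 1000 reads, 2 at a 4-fold threshold and 15 with an interval wholly beyond 2-fold. Lower shares in the segment against all compared positions were 9.31% and 5.02% on 28S reads, 7.35% and 3.27% by the median ratio, 13.7% and 8.91% without the most frequent positions, 20.2% and 12.6% at 20 reads (307 compared), and 9.30% and 7.60% at 1000 reads (43 compared), where they were near each other. Shares over all compared positions were not computed for neighbour sums, the 4-fold threshold or the interval rule, so those counts stand without a background. Windows with a ratio above 1 numbered 5 on 28S reads, 5 by the median ratio and 5 with windows of 25 nt. Of 120 ratios at the 40 named positions under other scalings, 78 stayed inside the counting interval, and 4 positions turned direction, all between 0.845 and 0.935 in the main scaling. Ending the segment at 5054, a check added after seeing the data, gave a ratio of 0.714 and a median log2 of -0.60. Depth limits the sparse middle, where 2 positions could be compared.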

Other observations

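The 168 listed positions under 100 reads held 3042 poly I:C reads and 2774 mock reads, or 3.62% and 2.86% of the segment's reads. Of the 103 among them with at least 20 reads, the 4 with the largest ratios lay in the sparse middle, from 4780 to 4932. Positions named here were chosen after their values were seen. Position 4810 had 69 poly I:C reads and 0 mock reads, which is at least 18.8-fold higher with a floor of 3 mock reads. Position 4808, 2 nt away, had 28 poly I:C reads and 3 mock reads, and its ratio was 7.64 (2.36 to 39.2, a 95% interval of counting error). Position 4911 had 56 poly I:C reads and 11 mock reads, a ratio of 4.16 (2.16 to 8.82), and position 4930 had 30 and 6, a ratio of 4.09 (1.68 to 12.0). In the other direction, position 4611 had 1 poly I:C read and 22 mock reads, a ratio of 0.0372 (0.000901 to 0.230). Position 4681, close to the frequent end at 4679, had 5 poly I:C reads and 40 mock reads, a ratio of 0.102 (0.0315 to 0.259).

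With 0 mock reads there were 28 positions, with 5 to 69 poly I:C reads and a median of 5.5. With 0 poly I:C reads there were 12, with 5 to 14 mock reads and a median of 6. Of the 28, 14 had exactly 5 reads, the listing limit, as had 5 of the 12. The poly I:C library has more listed reads, 3764202 against 3079346, so its reads alone reach this limit more easily. Such positions were not counted over all listed positions, so these numbers show no gain in the segment. Of the 28, 15 lay from 4780 to 4932, where 4 of the 12 lay.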
